A study of Homo sapiens with 16 samples.

Results

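SLC7A11 and 9 further antioxidant genes that the transcription factor NRF2 is known to drive were followed across 16 RNA-seq libraries of U2OS cells, a human osteosarcoma line. The 10 genes, of 58735 in the deposited table, were SLC7A11, GCLC, GCLM, NQO1, TXNRD1, SRXN1, HMOX1, ABCC2, ABCC3 and OSGIN1. They were chosen by name as NRF2 targets and selected on the measured FPKM of SLC7A11, ABCC2 and GCLC, which were known to be high with VE-822 alone after SETD2 knockdown. Levels in the libraries given VE-822 alone are therefore described without a test. The high levels may have been judged against untreated SETD2 knockdown cells as well. Comparisons of other treatments with untreated cells are then not independent of the choice for SLC7A11, ABCC2 and GCLC.

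Cells were transfected with an siRNA against SETD2 (siSETD2) or a non-targeting siRNA (siNT). SETD2 is the methyltransferase that places the third methyl group on lysine 36 of histone H3. Within each siRNA, cells received 2 mM hydroxyurea (HU) with 2 µM VE-822, HU alone, VE-822 alone or no drug. HU starves cells of deoxynucleotides so that replication forks stall, while VE-822 blocks ATR, a kinase of the replication checkpoint. Drugs were given for 4 h, at a time the labels place 48 h after transfection. All 8 groups share the line, the transfection and the serum-containing medium, and each holds 2 libraries, numbered R1 and R2. The labels name no siRNA sequence and mention no separate cultures for R1 and R2. Unless a replicate block is named, the p-values therefore reflect only how far libraries of a group lie apart, which may be a technical spread.

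NRF2 (gene NFE2L2) is held low by KEAP1, which hands it to a ubiquitin ligase for destruction. Oxidants and electrophiles disable KEAP1, and NRF2 then pairs with small MAF proteins on antioxidant response elements, sites from which BACH1 otherwise represses. SLC7A11 is the transport subunit of xCT, which imports cystine for glutathione synthesis, and ATF4, the factor of the amino acid response, is known to drive it as well.

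Promoter letters are shown for the members that held an antioxidant response element core near a start site. RefSeq windows of GRCh38.p14 covering the 250 bases before a start were at hand for 7 of the 10 genes (all but SLC7A11, HMOX1 and ABCC3), in 8 windows because TXNRD1 has 2. The core TGACNNNGC, searched on both strands, occurred in 3 of the 8 windows, those of GCLM and TXNRD1, against 10.9% of 35116 promoter windows. The GCLM window lies at chr1:93909431-93909680 on the minus strand. The TXNRD1 windows lie on the plus strand, the upstream one at chr12:104215529-104215778 and the internal one at chr12:104286782-104287031. Each is written 5′ to 3′ on the gene's strand, with the match in capitals.
GCLM: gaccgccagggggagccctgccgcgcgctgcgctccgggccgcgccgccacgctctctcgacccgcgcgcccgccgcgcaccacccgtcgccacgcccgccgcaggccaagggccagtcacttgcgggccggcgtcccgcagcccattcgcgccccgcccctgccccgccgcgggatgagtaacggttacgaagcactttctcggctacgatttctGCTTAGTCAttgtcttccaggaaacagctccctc
TXNRD1 upstream start: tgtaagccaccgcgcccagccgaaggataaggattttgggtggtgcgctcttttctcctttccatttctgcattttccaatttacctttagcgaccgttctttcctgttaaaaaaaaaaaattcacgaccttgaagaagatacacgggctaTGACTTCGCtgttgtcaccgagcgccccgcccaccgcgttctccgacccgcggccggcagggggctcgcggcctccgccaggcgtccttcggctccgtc
TXNRD1 internal start: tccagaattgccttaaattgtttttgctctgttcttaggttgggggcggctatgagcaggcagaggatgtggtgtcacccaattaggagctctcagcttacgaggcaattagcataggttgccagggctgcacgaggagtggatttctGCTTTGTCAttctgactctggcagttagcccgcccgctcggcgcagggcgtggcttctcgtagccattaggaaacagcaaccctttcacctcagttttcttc
The matches began 34 bases before the GCLM start, and 99 and 102 bases before the upstream and internal TXNRD1 starts. The core lies on the opposite strand in GCLM and in the internal TXNRD1 window. A second motif, TGATGNAA, a form bound by ATF4 with CEBP partners, was in 0 of the 8 windows and in 3.14% of all promoter windows. A match is a description of the letters and says nothing of binding in these cells.

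Levels are FPKM, fragments scaled to exon length and to library depth, and so can be set side by side between genes. Recovered library totals ran from 22310806 to 31101932 fragments. The depth used in the FPKM was not that total, but 0.940 (R2 of siNT under HU) to 1.07 (R1 of siSETD2 under HU) times it. This factor was higher in R1 than in R2 in each group outside VE-822 alone. All 10 genes passed the filter of a mean of at least 1 FPKM, with 13088 genes tested in all. Fold changes are on the log2(FPKM + 1) scale, with standard errors (SE) and Benjamini-Hochberg adjusted p-values from limma, and 0.05 was the threshold. R1 and R2 libraries deviated together in the 6 groups outside VE-822 alone. A value from a fit with a replicate block in those 6 groups is therefore given beside the plain one where it changes the call. With the block, p-values reflect the spread left once the mean R1 to R2 gap of those 6 groups is removed. They thus measure how alike differences are across groups that share 2 numbers, which are not shown to be separate cultures. Non-overlap between the libraries of 2 groups was common in comparisons with VE-822 alone, at 19.2% to 31.6% of all genes per direction. For the other comparisons where non-overlap is given, the share of all genes was not counted. Of 6 mesenchymal and osteoblast markers, 5 were at a mean of 1 FPKM or more, with a summed level of 249.4 to 438.1 FPKM per library. The means were 165 FPKM for SPARC, 118 for VIM, 27.6 for FN1, 21.6 for COL1A1 and 2.55 for RUNX2. COL1A2 was nearly absent, at a mean of 0.0108 FPKM. Blood markers summed to 0.957 to 3.40 FPKM and hepatocyte markers to 0.0478 to 0.325 FPKM, while epithelial markers summed to 52.4 to 116.5 FPKM. SETD2 itself was at 2.01 to 4.62 FPKM in the 8 siSETD2 libraries and 7.34 to 9.25 FPKM in the 8 siNT libraries.

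**Figure D1:**
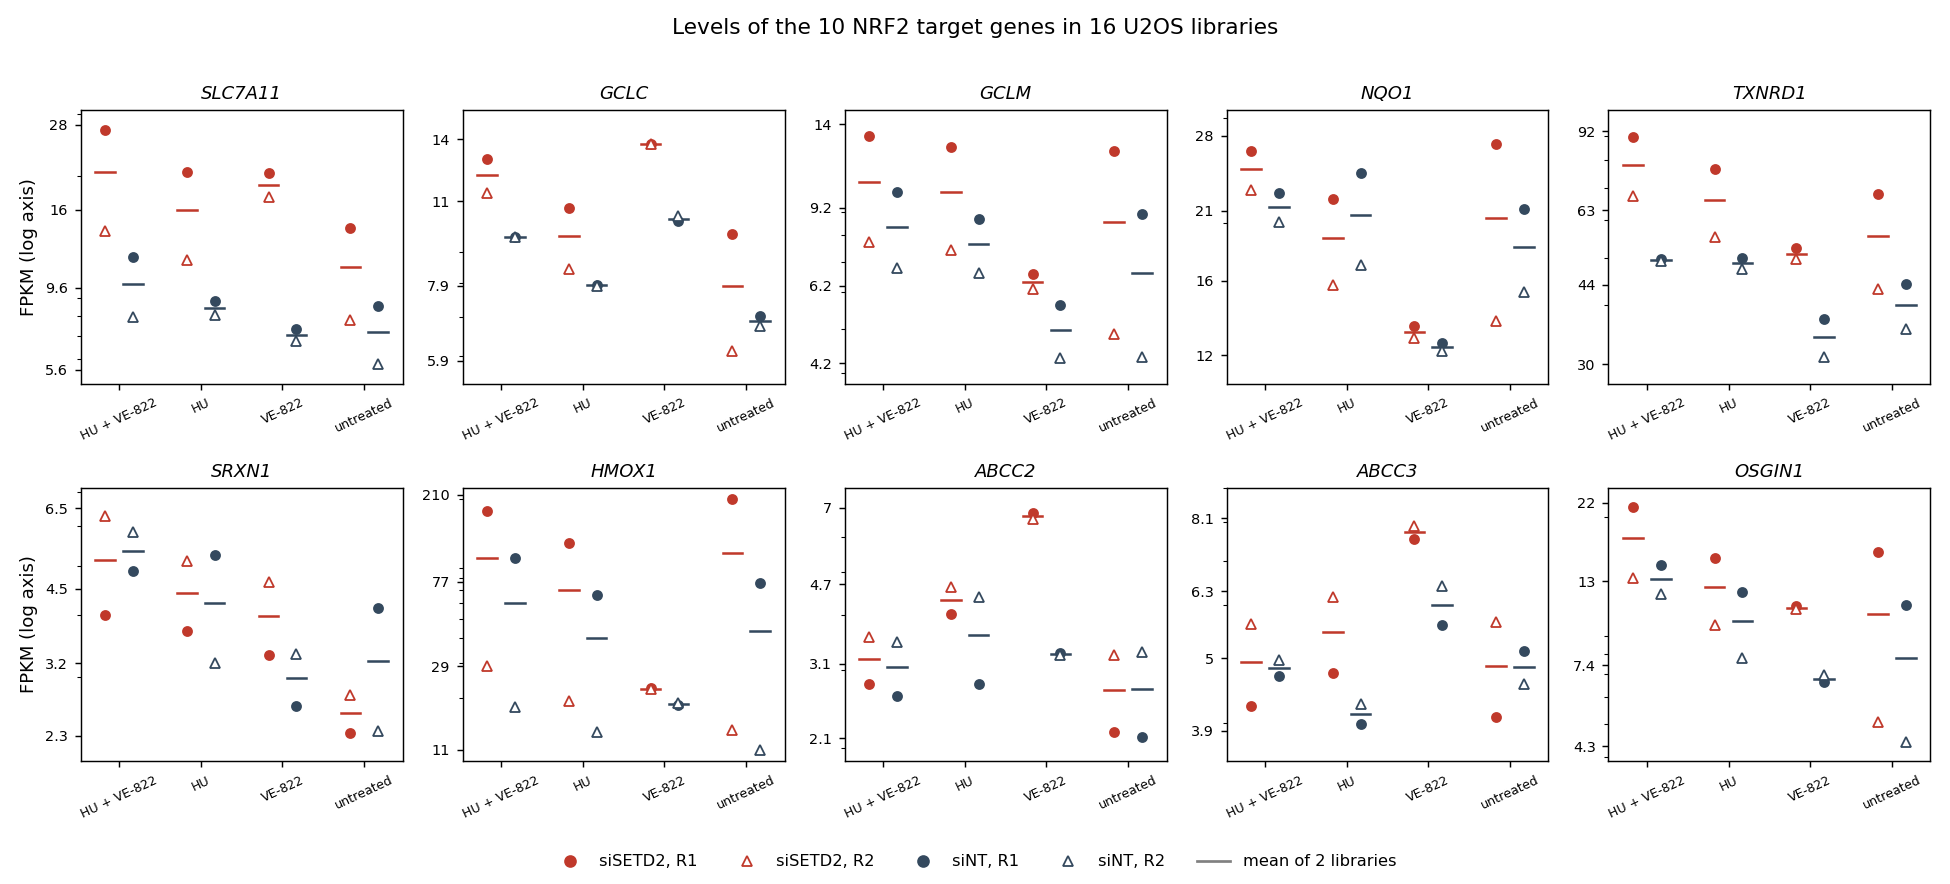
FPKM of each of the 10 genes on a log axis in every library, with siSETD2 (red) left of siNT (blue) in each treatment, R1 as filled circles, R2 as open triangles and the mean of both as a bar. SLC7A11 and TXNRD1 sit higher in siSETD2, GCLC, ABCC2 and ABCC3 are highest in siSETD2 with VE-822, and HMOX1 is 66.3 FPKM or more in each R1 library outside VE-822 alone.

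With SETD2 knockdown SLC7A11 was higher in every pair of libraries outside VE-822 alone, as was TXNRD1. SLC7A11 (ENSG00000151012, chr4:138164097-138242349 on the minus strand) measured 27.0 and 14.0 FPKM (R1 and R2) in siSETD2 against 11.7 and 7.90 in siNT under HU with VE-822. Under HU it measured 20.5 and 11.6 FPKM in siSETD2 against 8.80 and 8.03 in siNT. In untreated cells it measured 14.2 and 7.77 FPKM in siSETD2 against 8.53 and 5.82 in siNT. The siSETD2 and siNT libraries did not overlap under HU or HU with VE-822, and overlapped in untreated cells. The ratio of means was 2.09 under HU with VE-822, 1.91 under HU and 1.53 untreated. Averaged over these 3 treatments the log2 fold change was 0.76 (SE 0.206), higher in 6 of 6 pairs of the same treatment and number. It did not pass in limma (adjusted p = 0.277). With a block it passed in the 12 libraries outside VE-822 alone (adjusted p = 0.0296) and over all 8 groups (0.0284). With the block in 6 groups it passed as well (SE 0.0951, adjusted p = 0.00585), in a fit whose spread draws on VE-822 alone too. That call held in each of 16 fits that left out 1 library, with log2 fold changes of 0.66 to 0.85 and adjusted p-values of 0.00329 to 0.0330.

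Over the 8 groups, SLC7A11 ran in the order siSETD2 with HU and VE-822, siSETD2 with VE-822, siSETD2 with HU, untreated siSETD2, then siNT with HU and VE-822, with HU, untreated and with VE-822. The highest mean, 20.5 ± 9.23 FPKM, was 2.90 times the lowest, 7.05 ± 0.382 FPKM (SD, n = 2). All 4 siSETD2 group means thus stood above all 4 siNT means. The places of the VE-822-alone groups, and the ratio of 2.90 to the lowest, rest on values used to choose the genes, so nothing is read from them. In none of the 7 neighbouring pairs of that order were the libraries apart, so neighbouring places are not resolved. Both siSETD2 libraries with VE-822 stood above both untreated siSETD2 libraries, as in 26.9% of all genes. That difference was used to choose the genes, so nothing is read from it either. In these bulk samples, fewer cells expressing a gene and less RNA per cell cannot be told apart.

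GCLC and GCLM encode the catalytic and modifier subunits of glutamate-cysteine ligase, the first enzyme of glutathione synthesis. GCLC lies at chr6:53497341-53616970 and GCLM at chr1:93885205-93909456, both on the minus strand. GCLC measured 12.97 and 11.3 FPKM in siSETD2 against 9.56 and 9.57 in siNT under HU with VE-822. It measured 10.7 and 8.44 FPKM in siSETD2 against 7.94 and 7.89 in siNT under HU, and 9.67 and 6.13 in siSETD2 against 7.03 and 6.74 in siNT without drug. The untreated libraries overlapped and the other sets did not. Its averaged log2 fold change for siSETD2 against siNT was 0.23 (SE 0.0976), higher in 5 of 6 pairs, and did not pass (limma adjusted p = 0.586, and 0.145 with the block). GCLM measured 13.2 and 7.75 FPKM in siSETD2 against 9.95 and 6.77 in siNT under HU with VE-822. It measured 12.4 and 7.43 FPKM in siSETD2 against 8.69 and 6.63 in siNT under HU, and 12.2 and 4.86 in siSETD2 against 8.92 and 4.33 in siNT without drug. The number of a library separated GCLM more than the siRNA did, since every R1 library of these 6 groups exceeded every R2 library. Its log2 fold change of 0.29 was positive in 6 of 6 pairs and did not pass (adjusted p = 0.855, and 0.172 with the block).

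TXNRD1 (ENSG00000198431, chr12:104215779-104350305 on the plus strand), the cytosolic thioredoxin reductase, had the highest median of the 10 genes in siSETD2 libraries, 61.4 FPKM, against 45.8 FPKM in siNT. It measured 89.4 and 67.5 FPKM in siSETD2 against 49.9 and 49.3 in siNT under HU with VE-822. It measured 76.8 and 55.3 FPKM in siSETD2 against 50.1 and 47.4 in siNT under HU, and 68.2 and 43.1 in siSETD2 against 44.1 and 35.5 in siNT without drug. Libraries of the siRNAs stood apart in both HU treatments and overlapped in untreated cells. The averaged log2 fold change was 0.50 (SE 0.134), higher in 6 of 6 pairs, with a limma adjusted p of 0.268, and of 0.0219 with the block, though of 0.0608 with a block in the 12 libraries outside VE-822 alone. With the block, the call was kept in 8 of 16 fits leaving out 1 library. It was lost (adjusted p up to 0.0965) without either untreated siNT library, either HU siSETD2 library, either siSETD2 library of HU with VE-822, the R1 siNT library of HU or that of HU with VE-822. Without the block, the adjusted p was 0.0492 when the R2 untreated siSETD2 library was left out. Fragments in TXNRD1 may be shared with the overlapping RPL18AP3, EID3 and antisense AC089983.1, which reached 12.6, 3.63 and 10.5 FPKM. Use of strand is not given in the sources used here.

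NQO1, a quinone reductase, and SRXN1, which repairs overoxidized peroxiredoxins, did not differ in a single direction between the siRNAs. NQO1 lay between 12.9 and 27.1 FPKM in siSETD2 and between 12.2 and 24.3 FPKM in siNT, and was higher in siSETD2 in 3 of 6 pairs (log2 fold change 0.06, limma adjusted p = 0.972). SRXN1 lay between 2.33 and 6.27 FPKM in siSETD2 and between 2.34 and 5.83 FPKM in siNT, with as few as 152 fragments in a library. It was lower in siSETD2 in the R1 pair and higher in the R2 pair of all 3 treatments (averaged log2 fold change -0.08, adjusted p = 0.953).

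HMOX1 (ENSG00000100292, chr22:35380361-35394214 on the plus strand) encodes heme oxygenase 1, which breaks heme down, and BACH1 is its best known repressor. It measured 173 and 29.01 FPKM in siSETD2 against 102 and 18.1 in siNT under HU with VE-822, in the order R1, R2. It measured 121 and 19.4 FPKM in siSETD2 against 66.3 and 13.6 in siNT under HU, and 200.4 and 13.8 in siSETD2 against 75.8 and 10.98 in siNT without drug. Within each number siSETD2 was the higher, and across numbers the siRNAs overlapped in each treatment. The averaged log2 fold change was 0.74 (SE 0.830, limma adjusted p = 0.907), with 0.11 to 1.37 when 1 library was left out. With the block the SE was 0.159 and the adjusted p 0.0421, but the call was absent when all 8 groups carried the block (adjusted p = 0.504) or when the 12 libraries outside VE-822 alone were fitted with one (0.110). With the block in 6 groups the call was kept in 3 of 16 fits leaving out 1 library, those without R1 or R2 of untreated siSETD2 or without R2 of siNT under HU, and in the others the adjusted p reached 0.151.

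The export pumps ABCC2 (chr10:99782640-99852594) and ABCC3 (chr17:50634777-50692252) carry glutathione and glucuronide conjugates out of cells. Their averaged log2 fold changes for siSETD2 outside VE-822 alone were 0.09 and 0.11 and did not pass (limma adjusted p = 0.923 and 0.855, and 0.415 and 0.465 with the block). ABCC3 measured 4.25 and 5.63 FPKM in siSETD2 against 4.70 and 4.97 in siNT under HU with VE-822. It measured 4.76 and 6.18 FPKM in siSETD2 against 3.99 and 4.27 in siNT under HU, and 4.08 and 5.66 in siSETD2 against 5.12 and 4.57 in siNT without drug. Of these 3 treatments, both siSETD2 libraries stood above both siNT libraries in HU and the libraries overlapped in the other two. In HU ABCC3 had a ratio of means of 1.33 and a log2 fold change of 0.33 that did not pass (adjusted p = 0.9999, and 0.605 with the block). OSGIN1, an oxidative stress-induced growth inhibitor, measured 21.4 and 13.3 FPKM in siSETD2 against 14.5 and 11.97 in siNT under HU with VE-822. It measured 15.2 and 9.73 FPKM in siSETD2 against 12.1 and 7.77 in siNT under HU, and 15.8 and 5.07 in siSETD2 against 11.1 and 4.42 in siNT without drug. OSGIN1 was higher in 6 of 6 pairs, with a log2 fold change of 0.32 that did not pass (adjusted p = 0.863, and 0.236 with the block).

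As a list, 9 of the 10 genes had a positive averaged log2 fold change with siSETD2, with a median of 0.26 against -0.01 over all genes tested. None passed in the plain fit, where 0.0153% of genes passed upwards, and an unadjusted p under 0.05 was reached by 3 of them. With the replicate block 3 passed upwards, SLC7A11, TXNRD1 and HMOX1, against 0.581% of all genes. SLC7A11, GCLM, TXNRD1, HMOX1 and OSGIN1 were higher in 6 of 6 pairs, which 5.78% of all genes were. Beside this, 2 of the 5 mesenchymal markers tested had positive and 3 negative fold changes. SPARC and FN1 were lower in siSETD2 with the block (log2 fold changes of -0.44 and -0.63), against 1.28% of all genes. VIM was higher in 5 of 6 pairs. All 3 epithelial markers tested had positive fold changes, EPCAM (0.11) and KRT18 (0.23) in 6 of 6 pairs and KRT8 (0.07) in 5, and none passed. The part of either in the members' differences was not tested.

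The size of the siSETD2 difference varied with the library number. For SLC7A11, GCLC, GCLM, TXNRD1, HMOX1, ABCC2 and OSGIN1 the R1 pair showed the larger increase in 3 of 3 treatments, and for SRXN1 and ABCC3 in 0 of 3. For SLC7A11 the mean log2 difference was 0.98 in R1 pairs and 0.53 in R2 pairs, and for TXNRD1 it was 0.68 in R1 pairs and 0.31 in R2 pairs. For SETD2 itself it was -1.45 in R1 pairs and -0.82 in R2 pairs. The part of the deeper R1 knockdown in the larger R1 differences was not tested.

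**Figure D2:**
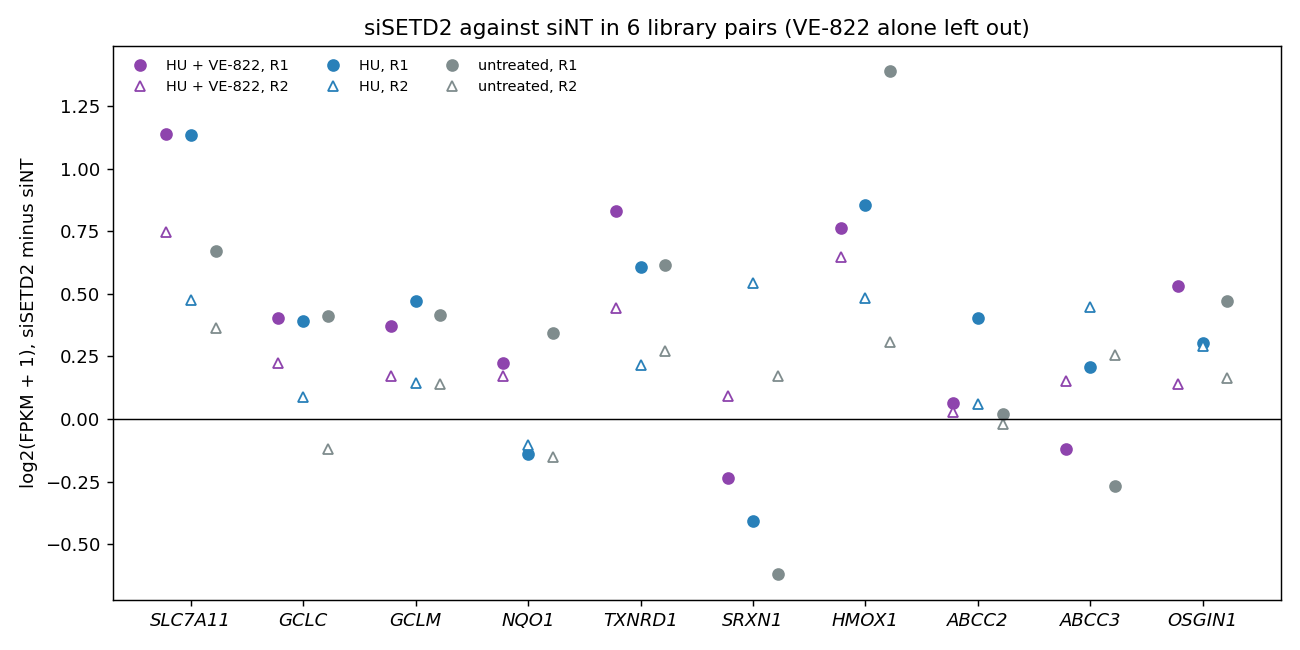
Difference in log2(FPKM + 1), siSETD2 minus siNT, for each gene in 6 library pairs of the same treatment and number (colours for treatments, filled circles R1, open triangles R2), without VE-822 alone. SLC7A11, TXNRD1, HMOX1, GCLM and OSGIN1 lie above 0 in 6 of 6 pairs, while SRXN1 lies below 0 in the R1 pairs and above 0 in the R2 pairs.

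HU against untreated cells was compared next, averaged over both siRNAs. ABCC2 measured 4.01 and 4.63 FPKM with HU against 2.16 and 3.24 untreated in siSETD2. In siNT it measured 2.79 and 4.40 FPKM with HU against 2.12 and 3.30 untreated. ABCC2 stood apart in siSETD2 and overlapped in siNT. The choice of ABCC2 may have drawn on the untreated siSETD2 libraries compared here, so its difference is not independent of that choice. The averaged log2 fold change was 0.42 (SE 0.151), higher in 4 of 4 pairs, with a limma adjusted p of 0.4998, and of 0.0160 with the block. It did not pass with a block over all 8 groups (adjusted p = 0.116) or in the 12 libraries outside VE-822 alone (0.0583). With the block in 6 groups the call was lost in 3 of 16 fits, those without R2 of untreated siNT, R1 of siSETD2 under HU or R2 of siNT under HU (adjusted p up to 0.0933). The log2 fold change in siSETD2 alone was 0.54 (adjusted p = 0.0591 with the block), and in siNT alone it was 0.30.

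None of the other 9 genes passed for HU in either fit. SLC7A11 had a log2 fold change of 0.37, OSGIN1 of 0.40 and SRXN1 of 0.46, with limma adjusted p-values of 0.837, 0.911 and 0.603. Leaving out 1 library gave 0.17 to 0.56 for SLC7A11, 0.029 to 0.76 for OSGIN1 and 0.30 to 0.61 for SRXN1. SLC7A11, GCLC, TXNRD1, SRXN1 and ABCC2 were higher with HU in 4 of 4 pairs, against 13.4% of all genes. With 0 of the 10 passing in the plain fit (2 at an unadjusted p under 0.05) and 1 with the block, the shares of all genes that passed upwards were 0.0382% and 0.848%. The median log2 fold change of the 10 genes was 0.27, against 0.01 over all genes tested.

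Adding VE-822 to HU gave no member past the threshold, in the plain fit (0.00764% of all genes upwards) or with the block (0.703%). In the plain fit 1 of the 10 reached an unadjusted p under 0.05, and 4 did with the block. GCLC, GCLM, HMOX1 and OSGIN1 were higher with HU and VE-822 than with HU in 4 of 4 pairs, against 17.7% of all genes. OSGIN1 had the log2 fold change of 0.42, GCLC of 0.28 and HMOX1 of 0.52, with limma adjusted p-values of 0.196, 0.149 and 0.192 with the block. ABCC2 went the other way, at 2.79 and 3.57 FPKM with HU and VE-822 against 4.01 and 4.63 with HU in siSETD2. In siNT it was at 2.62 and 3.48 FPKM with HU and VE-822 against 2.79 and 4.40 with HU. Its log2 fold change was -0.26 (limma adjusted p = 0.732, and 0.0863 with the block), and it was lower in 4 of 4 pairs, which 16.5% of all genes were.

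HU with VE-822 against untreated cells gave the most members past the threshold, though this comparison reuses the libraries of those above. None of the 10 passed in the plain fit, against 0.0229% of all genes upwards, and 5 had an unadjusted p under 0.05. With the block GCLC, SLC7A11, OSGIN1 and TXNRD1 passed, against 4.07% of all genes. The choice of GCLC and SLC7A11 may have drawn on the untreated siSETD2 libraries compared here, so their calls are not independent of it. GCLC had a log2 fold change of 0.51 (SE 0.120, limma adjusted p = 0.0965, and 0.0135 with the block). Its siNT libraries held 9.56 and 9.57 FPKM with both drugs against 7.03 and 6.74 untreated, and its siSETD2 libraries 12.97 and 11.3 against 9.67 and 6.13. The libraries did not overlap within either siRNA, and the share of all genes for which this held was not counted. Without the block, the adjusted p was 0.0123 when R1 of untreated siSETD2 was left out.

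SLC7A11 had a log2 fold change of 0.61 for both drugs against none (limma adjusted p = 0.314, and 0.0151 with the block). OSGIN1 had one of 0.82 (adjusted p = 0.308, and 0.0162 with the block), and TXNRD1 one of 0.41 (0.294, and 0.0445 with the block). With a block over all 8 groups OSGIN1 (adjusted p = 0.0717) and TXNRD1 (0.0655) did not pass. SRXN1 reached 0.69 and missed the threshold with the block (adjusted p = 0.0507). With the block, leaving out 1 library kept the call in 14 of 16 fits for GCLC and SLC7A11, 13 for OSGIN1 and 4 for TXNRD1. The call was lost without R2 of siNT with both drugs for all 4 genes. It was further lost without R2 of siSETD2 with both drugs for GCLC, OSGIN1 and TXNRD1, without R1 of that group for SLC7A11 and TXNRD1, and without R2 of untreated siNT for OSGIN1 and TXNRD1. TXNRD1 also lost it without R2 of untreated siSETD2, R1 of untreated siNT, any library with HU alone, or either siSETD2 library with VE-822 alone (adjusted p up to 0.171 over these fits). SLC7A11, GCLC, GCLM, TXNRD1, SRXN1, ABCC2 and OSGIN1 were higher in 4 of 4 pairs, against 15.4% of all genes. All 10 log2 fold changes were above 0, down to 0.01 for ABCC3, with a median of 0.45 against 0.02 over all genes tested. ABCC3 turned to -0.021 when libraries were rescaled to a median log2 ratio of 0.

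Within a single treatment or a single siRNA no member passed in either fit, in the 7 comparisons that did not use VE-822 alone. An unadjusted limma p under 0.05 was reached by 0 to 2 of the 10 genes per comparison in the plain fit, and by 0 to 5 with the block. The difference of the HU response between siSETD2 and siNT, and that of the response to VE-822 added to HU, passed for none of the 10 genes, 0 of them at an unadjusted p under 0.05 in either fit (lowest limma adjusted p = 0.99998, and 0.9996 with the block). The siRNAs are thus not shown to differ in their response to either step.

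**Figure D3:**
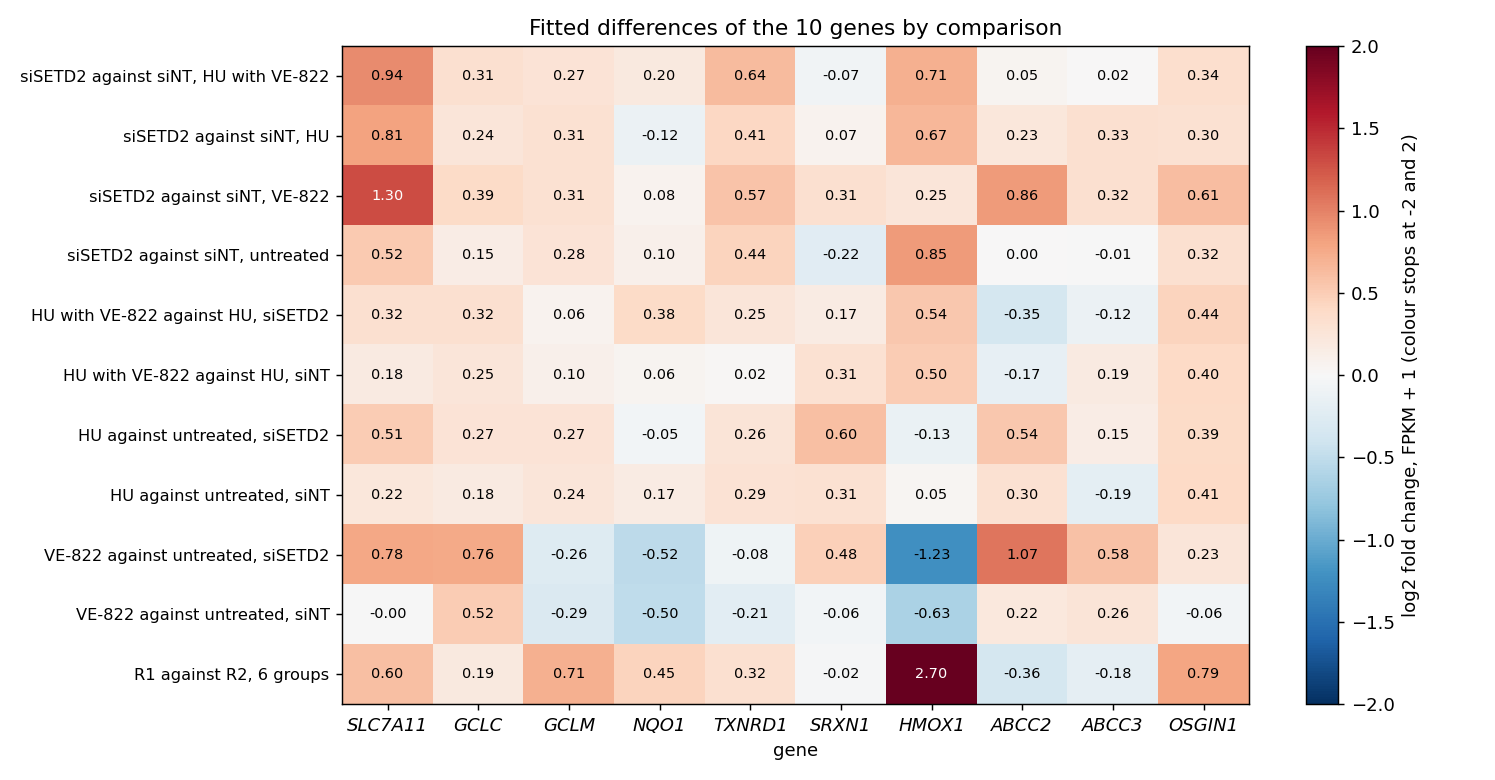
Fitted log2 fold changes on the FPKM + 1 scale (colour, and printed in each cell) for the 10 genes across 10 comparisons of treatments or siRNAs and the R1 against R2 difference. The SLC7A11 column is positive in each row of siSETD2 against siNT, up to 1.30 in VE-822, and HMOX1 reaches 2.70 for R1 against R2. Rows that hold VE-822 alone were used to choose the genes, so nothing is read from them.

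The levels with VE-822 alone are those that were known when the genes were listed. SLC7A11 measured 20.4 and 17.4 FPKM in siSETD2 against 7.32 and 6.78 in siNT, a ratio of means of 2.68. ABCC2 measured 6.83 and 6.60 FPKM in siSETD2 against 3.28 and 3.24 in siNT. GCLC measured 13.7 and 13.8 FPKM in siSETD2 against 10.2 and 10.4 in siNT. Libraries of one group were close together in these 3 genes, and siSETD2 stood clear of siNT in each. In 9 of the 10 genes, all but SRXN1, both siSETD2 libraries were above both siNT libraries, where 19.2% of all genes were. The choice of genes used these libraries, so nothing is read from that count.

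Against untreated siSETD2 cells, both siSETD2 libraries with VE-822 were higher for SLC7A11, GCLC, SRXN1, ABCC2 and ABCC3 (26.9% of all genes) and lower for NQO1 (29.4%). Against untreated siNT cells, both siNT libraries with VE-822 were higher for GCLC and ABCC3 (25.5%) and lower for NQO1 (31.6%). NQO1 was at 13.5 and 12.9 FPKM with VE-822 against 27.1 and 13.7 untreated in siSETD2. In siNT it was at 12.6 and 12.2 FPKM with VE-822 against 21.2 and 15.3 untreated. ABCC3 was at 7.53 and 7.90 FPKM with VE-822 against 4.08 and 5.66 untreated in siSETD2. In siNT it was at 5.60 and 6.41 FPKM with VE-822 against 5.12 and 4.57 untreated. ABCC2 in siNT was at 3.28 and 3.24 FPKM with VE-822 against 2.12 and 3.30 untreated, with overlap. The VE-822-alone libraries also stood apart in some marker genes. RUNX2 was at 5.85 to 6.91 FPKM there and at 0.833 to 1.91 in the other 12 libraries, HU with VE-822 included. FN1 was at 39.8 to 51.1 against 6.91 to 35.8 FPKM, while COL1A1 and SPARC lay within the range of the others. What sets these libraries apart was not tested.

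R1 libraries were also compared with R2 libraries, a comparison chosen after the data were seen. HMOX1 lay between 66.3 and 200.4 FPKM in the 6 R1 libraries outside VE-822 alone, against 10.98 to 29.01 FPKM in the 6 R2 libraries. The ratio R1 over R2 was 14.5 in untreated siSETD2 and 6.91 in untreated siNT, and between 4.88 and 6.23 in the 4 groups with HU. In VE-822 alone it was 1.02 in siSETD2 and 0.981 in siNT, with all 4 libraries between 18.4 and 22.5 FPKM. HMOX1 with VE-822 alone was thus at the level of the R2 libraries of the other groups. Its R1 against R2 log2 fold change of 2.70 ranked 7 of 13088 genes. The gap between libraries of a group is missing in VE-822 alone, so the drug and this gap cannot be told apart in any comparison with those 4 libraries.

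In the fit with the block, R1 exceeded R2 for HMOX1, OSGIN1 (log2 fold change 0.79), GCLM (0.71), SLC7A11 (0.60), NQO1 (0.45) and TXNRD1 (0.32), 6 of the 10 genes against 19.2% of all genes. ABCC2 was lower in R1 (-0.36, limma adjusted p = 0.000585), 1 of the 10 against 22% of all genes. GCLC (0.19), ABCC3 (-0.18) and SRXN1 (-0.02) did not pass, with adjusted p-values of 0.0676, 0.0767 and 0.927. The SLC7A11 gap had an adjusted p of 0.000693. HMOX1, OSGIN1, GCLM, SLC7A11, NQO1 and TXNRD1 were higher in R1 in 6 of 6 groups, as were 17.5% of all genes, and ABCC2 was lower in 6 of 6, as were 19.2%. Of 24 other NRF2 targets tested, 17 were higher in R1 and 3 lower, with a median of 0.33 against -0.01 over all genes. AKR1B10, an aldo-keto reductase, lay between 1.85 and 3.57 FPKM in R1 and between 0.495 and 0.986 FPKM in R2. FTL, the ferritin light chain, lay between 554 and 1038 FPKM in R1 and between 273 and 370 FPKM in R2, though ferritin pseudogenes make its counts uncertain. Among the marker genes COL1A1, SPARC, FN1 and RUNX2 were lower in R1 (log2 fold changes of -1.62, -0.78, -0.88 and -0.28), as was KRT8 (-0.75), and VIM was higher (0.32). The epithelial markers KRT18 and EPCAM went both ways. KRT18 was at 99.4 (R1) and 77.7 (R2) FPKM in untreated siSETD2, but 70.2 and 79.7 in siSETD2 under HU with VE-822. EPCAM was at 2.15 and 1.86 FPKM in siSETD2 under HU, but 1.67 and 1.78 in siNT under HU with VE-822. What gives R1 and R2 their difference was not tested.

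**Figure D4:**
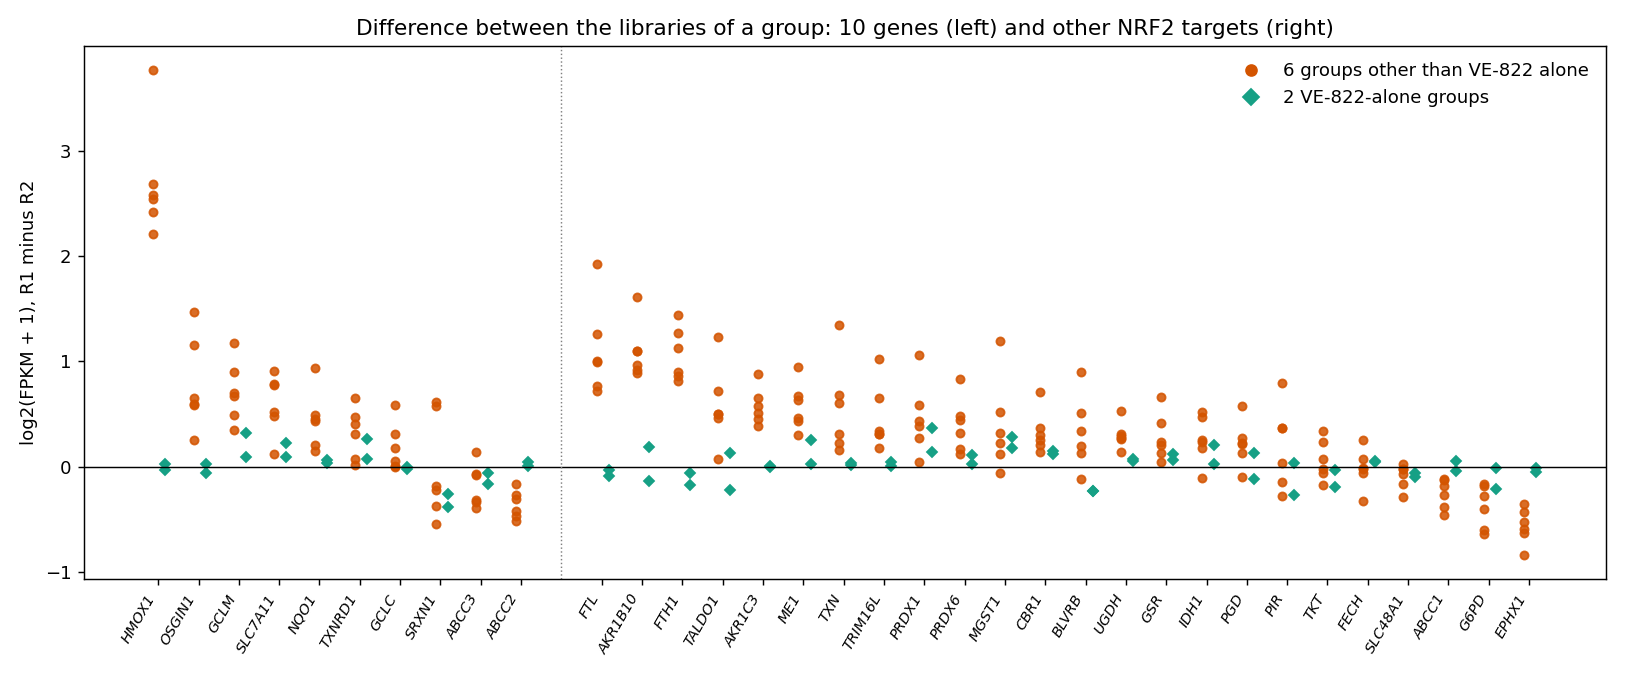
Difference in log2(FPKM + 1), R1 minus R2, for the 10 genes (left) and 24 other NRF2 targets (right), as circles for the 6 groups outside VE-822 alone and diamonds for the 2 VE-822-alone groups. HMOX1 stands highest, and its VE-822-alone diamonds lie near 0.

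Of 13 regulators and partners of NRF2 tested, none passed for siSETD2 against siNT in either fit. Those with an unadjusted p under 0.05 were 0 without the block and 1 with it. KEAP1, MAFG and SQSTM1 were higher in siSETD2 in 6 of 6 pairs, against 5.78% of all genes. NFE2L2 averaged 14.5 ± 1.44 FPKM in siSETD2 and 12.6 ± 1.76 in siNT under HU with VE-822, and 11.3 ± 3.61 in siSETD2 and 9.70 ± 0.532 in siNT without drug (SD, n = 2 each). Its log2 fold change for siSETD2 was 0.13 (limma adjusted p = 0.841), that of KEAP1 was 0.14 (0.823) and that of BACH1 was -0.09 (0.889). For HU with VE-822 against untreated, 4.07% of all genes passed upwards with the block and 0.0229% without it. Of the 13, 5 passed with the block and 0 without it (6 at an unadjusted p under 0.05). They were NFE2L2 (0.35), its inhibitor KEAP1 (0.53), the autophagy receptor SQSTM1 (0.66) and the small MAF partners MAFG (0.39) and MAFK (0.58), with adjusted p-values of 0.0138 to 0.0399 with the block. MAFG alone of the 13 passed for HU with VE-822 against HU (0.45, 0.0443 with the block), against 0.703% of all genes upwards.

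Of 24 other NRF2 targets tested, 1 passed with the block for siSETD2 against siNT (0.581% of all genes passed upwards), IDH1, the cytosolic NADPH-producing isocitrate dehydrogenase (0.46, limma adjusted p = 0.0187). The 24 had a median of 0.07 for that comparison. For HU with VE-822 against untreated 2 passed with the block, against 4.07% of all genes upwards, UGDH (0.43) and TRIM16L (0.46), with a median of 0.12. None of the 24 passed without the block in these comparisons, with 1 at an unadjusted p under 0.05 in each. Among 4 other ABCC pumps tested, ABCC5 was lower in siSETD2 with the block (-0.47, adjusted p = 0.0189), against 1.28% of all genes. ABCC1 did not pass (-0.03).

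In the cystine, glutathione and ferroptosis list, 16 genes were tested. SLC3A2, the heavy chain that carries SLC7A11 to the membrane, averaged 177 ± 4.13 FPKM in siSETD2 and 138 ± 28.7 in siNT under HU with VE-822, and 136 ± 35.4 in siSETD2 and 110 ± 12.2 in siNT without drug (SD, n = 2 each). It was higher in siSETD2 in 6 of 6 pairs and did not pass (0.34, limma adjusted p = 0.501, and 0.180 with the block). AIFM2, a ferroptosis suppressor that reduces coenzyme Q, was the 1 gene of the 16 that passed for siSETD2 with the block (0.30, adjusted p = 0.0477). Of all genes, 0.581% passed upwards there. GPX4, the lipid peroxidase that guards against ferroptosis, had a log2 fold change of 0.08 and glutathione synthetase GSS one of -0.08, neither past the threshold. CHAC1, which degrades glutathione, averaged 6.89 ± 1.72 FPKM in siSETD2 and 4.32 ± 1.27 in siNT with both drugs, and 2.85 ± 0.767 in siSETD2 and 1.80 ± 0.114 in siNT without (SD, n = 2 each). CHAC1 passed for both drugs against none with the block (0.97, adjusted p = 0.00756), as did CTH (0.60), which makes cysteine from cystathionine. Of all genes, 4.07% passed upwards in that comparison.

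Genes of the ATF4 amino acid response, which also drives SLC7A11, were counted beside the members. For HU with VE-822 against untreated, 14 of 23 tested passed upwards with the block (4.07% of all genes) and 1, ATF3, without it (0.0229%), with a median log2 fold change of 0.40. They included ATF4 (0.46), ATF3 (0.99), SESN2 (0.65), the serine synthesis enzyme PSAT1 (0.51) and asparagine synthetase ASNS (0.39), and CHAC1 is in this list too. ATF4 averaged 124 ± 7.41 FPKM in siSETD2 and 108 ± 17.4 in siNT with both drugs, against 95.4 ± 16.6 in siSETD2 and 73.6 ± 7.75 in siNT untreated (SD, n = 2 each). For siSETD2 against siNT 1 of the 23 passed with the block, the mTORC1 inhibitor DDIT4 (0.70, limma adjusted p = 0.0187), against 0.581% of all genes upwards. None of the 23 passed without it, and their median was 0.11. The part of either list in the SLC7A11 difference was not tested.

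The genes whose levels were most like SLC7A11 over the 16 libraries, by Pearson's r of log2(FPKM + 1) among 13088 genes, were HKDC1 (0.94), IRAK2 (0.93), MIR3142HG (0.86), TRIM16L (0.85) and TXNRD1 (0.85). HKDC1 encodes a hexokinase domain protein and IRAK2 a kinase of the interleukin 1 receptor pathway. HKDC1 measured 8.73 and 7.86 FPKM in siSETD2 against 4.13 and 4.41 in siNT with VE-822 alone, and 8.35 and 4.04 in siSETD2 against 5.78 and 3.96 in siNT untreated. Among the 12 libraries outside VE-822 alone, with R1 and R2 each centred, r was 0.88 for HKDC1, 0.86 for IRAK2, 0.84 for MIR3142HG, 0.73 for TRIM16L and 0.96 for TXNRD1. Among the members over 16 libraries, r with SLC7A11 was 0.77 for OSGIN1, 0.75 for GCLC, 0.68 for GCLM and 0.58 for HMOX1. It was 0.36 for NQO1, 0.32 for ABCC2, 0.22 for SRXN1 and 0.15 for ABCC3. In the 12 centred libraries r was 0.86 for GCLM, 0.85 for GCLC, 0.81 for HMOX1 and 0.74 for OSGIN1. There it was 0.49 for ABCC2, 0.44 for NQO1, 0.23 for ABCC3 and 0.20 for SRXN1. These libraries share siRNA, drug and number, so the values describe likeness and carry no test.

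**Figure D5:**
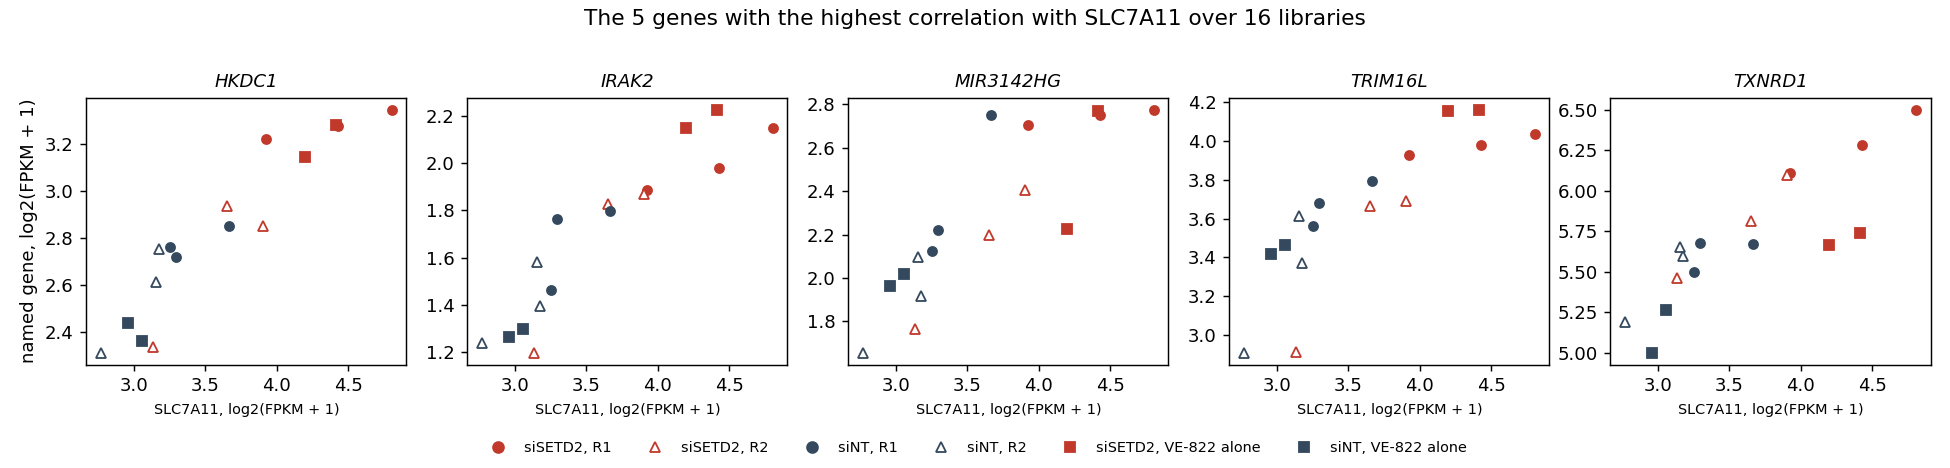
Level of 5 genes (vertical axes) against that of SLC7A11 (horizontal axes), both as log2(FPKM + 1), in 16 libraries, with siSETD2 in red, siNT in blue, R1 as filled circles, R2 as open triangles and VE-822 alone as squares. HKDC1, with r of 0.94, follows SLC7A11 in VE-822 alone too, while TXNRD1 is lower there at a given SLC7A11 level.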

How the data were processed

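RNA from 16 U2OS libraries in 8 groups of 2 was sequenced. The authors deposited 1 table of FPKM values for 58735 Ensembl genes. Per the submitters' processing notes, reads were handled with STAR 2.6.1d, FastQC, DESeq2 1.26.0 and featureCounts 1.5.0-p3 on build hg38. No annotation release or strand setting is given in the sources used here. All identifiers matched GENCODE release 29, the source of symbols and GRCh38 positions. FPKM multiplied by exon length gave whole fragments, within 0.01, for 100% of values above 0, which served for depth and for alternatives that start from fragments.

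Genes averaging 1 FPKM or more were tested on log2(FPKM + 1) with limma 3.58.1 (limma-trend) in R 4.3.3, with 1 mean per group over all 16 libraries. The p-values were adjusted by Benjamini-Hochberg over 13088 genes within a comparison. The procedure was tested on simulated data.

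Pairing by number comes from the labels' R1 and R2 and from the data. R1 minus R2 correlated across genes with r of 0.363 to 0.746 over the 15 pairings of groups outside VE-822 alone. It was -0.052 to 0.295 over 12 pairings of such a group with a VE-822-alone one, and 0.395 between both VE-822-alone groups. The replicate block is a term for the number that is 0 in VE-822 alone. Fold changes are the same with it.

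The genes, lists and contrasts were chosen with earlier results of these data known. The text names all 10 members, SETD2, listed genes that passed or serve as context (NFE2L2, KEAP1, BACH1, SLC3A2, GPX4, GSS, CHAC1, ATF4, ABCC1), and the 5 genes most correlated with SLC7A11. AKR1B10, FTL and the marker genes were named after their values were seen. Promoter sequences are from RefSeq, GRCh38.p14. Alternatives covered pseudocount, filter, scaling, limma-voom, the block, leaving out VE-822-alone libraries and leaving out each library.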

Additional observations from a re-analysis of the deposited data

Results flagged for a closer look

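ABCC3 levels moved in opposite directions in the 2 siRNAs at both HU steps, in every pair. The share of all genes with such a pattern was not counted. For HU against untreated, the response in siSETD2 minus that in siNT was 0.33 on the log2 scale, since both siSETD2 pairs were higher with HU and both siNT pairs lower. For HU with VE-822 against HU the difference was -0.31, with both siSETD2 pairs lower and both siNT pairs higher. Both values rest on the same 4 HU libraries, so they are not separate findings. The test of the difference itself did not pass in limma in either case (adjusted p = 0.99998 for both).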

How the results depend on the processing

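The number of genes past the threshold over the whole table depended on the settings. For siSETD2 against siNT it was 3, with 0 at a pseudocount of 0.1 or 0.01 or a filter of mean 0.1 FPKM, 45 with no filter, 9 with limma-voom, 63 with a replicate block over all 8 groups, 243 with the replicate block in 6 groups, 0 in the 12 libraries without VE-822 alone and 47 there with a block. For HU against untreated it was 14, with 46 with no filter, 45 and 209 with the blocks over 8 and in 6 groups, and 0 and 72 in the 12 libraries without and with a block. For HU with VE-822 against HU it was 1, with 25 with no filter, 2 scaled to library totals, 20 and 172 with the blocks, and 0 and 56 in the 12 libraries. For HU with VE-822 against untreated it was 5, with 11 and 33 at pseudocounts of 0.1 and 0.01, 40 with no filter, 8 after median rescaling, 27 scaled to totals, 413 and 956 with the blocks, and 0 and 413 in the 12 libraries. Leaving out 1 library gave 0 to 126, 0 to 52, 1 to 3 and 0 to 430 genes in these comparisons.

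In the 12 libraries with a block, SLC7A11 passed for siSETD2 (adjusted p = 0.0296), TXNRD1 (0.0608), HMOX1 (0.110) and, for HU, ABCC2 (0.0583) did not, and for both drugs against none SLC7A11, GCLC and OSGIN1 passed (0.0392, 0.0396 and 0.0463) and TXNRD1 did not (0.0797). Of the 10 genes, the block over all 8 groups called SLC7A11 (0.0284) and TXNRD1 (0.0438) for siSETD2, and SLC7A11 (0.0455) and GCLC (0.0316) for both drugs against none. Without a block, limma-voom called none of the 10 genes in these 4 comparisons. Apart from ABCC3 at -0.021 after median rescaling (HU with VE-822 against untreated), members changed direction only when 1 library was left out, and none of these had passed. The ranges were -0.10 to 0.21 for NQO1 and -0.18 to 0.026 for SRXN1 (siSETD2). For HU they were -0.98 to 0.90 for HMOX1, -0.036 to 0.55 for GCLM, -0.18 to 0.29 for NQO1 and -0.12 to 0.076 for ABCC3. For VE-822 added to HU they were -0.13 to 1.16 for HMOX1, -0.091 to 0.26 for GCLM and -0.053 to 0.12 for ABCC3. For both drugs against none they were -0.46 to 1.42 for HMOX1 and -0.088 to 0.11 for ABCC3. The cause was not tested. A group left with 1 library is assumed to vary like the others. SRXN1 had as few as 152 fragments in a library, OSGIN1 368 and ABCC2 399.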
